A study of Homo sapiens with 3 samples.

Results

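The sorting nexins are proteins that share a PX domain, a fold that binds phosphoinositide lipids on endosomes. Many of them bend endosomal membrane into tubules and choose the receptors that leave the endosome for the Golgi or the cell surface instead of being degraded in the lysosome. They work beside retromer, the coat complex made of VPS26, VPS29 and VPS35. All genes with an SNX number as their only platform symbol were taken, without pseudogenes, together with the retromer genes VPS26A, VPS26B, VPS29 and VPS35. This gave 33 genes (29 SNX genes and 4 retromer genes) of 22465 genes measured. SNX6 had been singled out from its value with siH19-1 in these same arrays, so its values are given as a description.

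RNA came from DLD1, an established human colon cancer cell line, transfected with a control siRNA, with siH19-1 or with siH19-2. The last 2 siRNAs target H19, an imprinted long noncoding RNA. Each condition had 1 Affymetrix whole-transcript array, siRNA was used at 50 nM, and the labels give 48 hours of transfection where the design text gives 24. There was no replication, so differences are between single arrays, carry no error and were given no p-value, and their precision is limited by how few arrays there are. A gene is said to rise or fall where its deposited signal differed at least 1.5-fold from control, which is 0.585 on the log2 scale. Genes were compared where their log2 signal averaged 5 or more over the 3 arrays: 9630 genes in all, and 26 of the 33 members. For the spread between probe sets only, 66 genes had several probe sets above this minimum. Probe sets named for alternative haplotypes or for chromosome Y were left out of this count and of the SDs. The SD of the difference among probe sets of the same gene was 0.239 with siH19-1 and 0.303 with siH19-2. These SDs come from the same arrays, so they hold no variation between cultures or arrays and are not the error of a difference.

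Markers of colon epithelium were measured as a check of the cell line. Of 7 colon epithelial markers 5 passed the signal minimum, among them EPCAM, KRT8 and KRT18, while KRT20 and VIL1 did not. Some of these markers moved themselves: CDH1 read 10.27 in control, 12.10 with siH19-1 and 12.23 with siH19-2, and EPCAM read 14.74, 14.70 and 13.02. Their part in the differences below was not tested. Of the markers measured for other cells, 0 of 4 (fibroblast), 0 of 3 (leukocyte) and 0 of 3 (endothelial) passed. The probe set shared by H19 and MIR675 read 7.88 in control, 7.74 with siH19-1 and 7.37 with siH19-2, or 90.8% and 70.2% of the control signal. This signal was thus below control on both siRNA arrays but did not reach 1.5-fold on either. With siH19-1 the difference was -0.14, and the median size of difference over all compared genes was 0.14. On that array 61.9% of compared genes read below control, so its H19 value cannot be told from background.

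With siH19-1, SNX6 fell and the other 25 compared members stayed within 1.5-fold of control. SNX6 (TC14001028.hg.1) encodes a BAR-domain sorting nexin that pairs with SNX1 or SNX2 in the coat that returns the mannose 6-phosphate receptor IGF2R from endosomes to the Golgi. Its deposited log2 signal was 12.50 in control, 9.78 after siH19-1 and 12.43 after siH19-2. The siH19-1 array was low and the other two were close together. The difference from control was -2.72 with siH19-1, which leaves 15.2% of the control signal, and -0.07 with siH19-2, or 95.3% of it. It ranked 4 from the lowest among the 9630 compared genes with siH19-1 and 4679 with siH19-2. Without use of the control array, SNX6 was lower by 6.28-fold with siH19-1 than with siH19-2 (-2.65 on the log2 scale). This contrast reuses the siH19-1 value for which SNX6 was singled out, so it is no independent evidence. Less RNA per cell and fewer cells with the RNA cannot be told apart in these bulk samples.

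Thus 1 of 26 members passed 1.5-fold with siH19-1, and it was the gene the family had been chosen for. Of all compared genes 4.21% passed, 1.58% higher and 2.63% lower. The differences of the other 25 members ran from -0.44 to 0.39. Their median size, without regard to direction, was 0.15, beside 0.14 over all compared genes. The median difference of the 26 was -0.05, beside -0.06 for all compared genes, and it was 0.03 after each array was centred on its median. The share of members, 3.85%, is near that of all compared genes and is no result about the family. SNX6 remained the 1 compared member past 1.5-fold with siH19-1 under each other scaling, signal minimum and probe set rule tried. Its differences ran from -2.72 to -2.65.

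**Figure D1:**
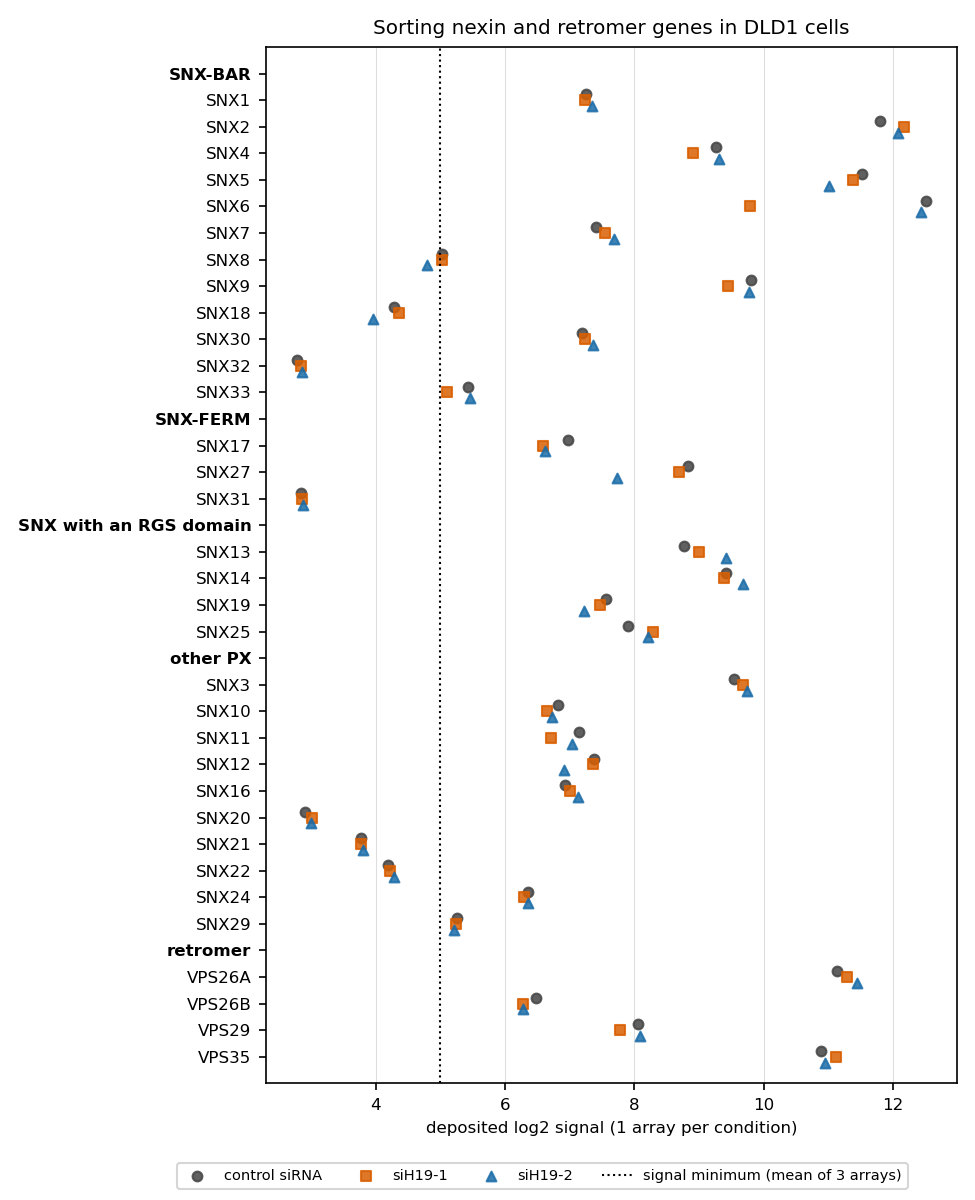
Deposited log2 signal (horizontal axis) of the 33 sorting nexin and retromer genes on 3 arrays, 1 per condition, grouped by domain. The dotted line marks the signal minimum of 5, which applies to the mean of the 3 arrays. SNX6 lies at 9.78 with siH19-1 and at 12.50 and 12.43 on the other arrays, and levels of different genes come from different probe sets and are not to be compared.

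The partners of SNX6 in the same coat did not reach 1.5-fold with siH19-1. Of all compared genes only 4.21% did, so this is no result about the coat. SNX1 read 7.25, 7.24 and 7.34 in control, siH19-1 and siH19-2, nearly level over the conditions. SNX2, which forms the same kind of pair as SNX1, read 11.79, 12.17 and 12.08, so both siRNA arrays lay above control (0.38 and 0.29) without reaching 1.5-fold. SNX5, the close relative that can take the place of SNX6, read 11.52, 11.38 and 11.00. Its differences were -0.14 with siH19-1 and -0.52 with siH19-2, the member nearest to 1.5-fold among those that did not reach it. SNX32, another close relative of SNX6, was under the signal minimum at 2.79, 2.84 and 2.86. DCTN1, the dynactin subunit that SNX6 binds to link its coat to the dynein motor, read 7.23, 7.17 and 7.28.

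Other BAR-domain sorting nexins act in recycling or in endocytosis. SNX4, which recycles the transferrin receptor, read 9.26, 8.91 and 9.30, lower with siH19-1 by 0.35. SNX7 and SNX30, which can pair with SNX4, differed from control by 0.14 and 0.05 with siH19-1 and by 0.27 and 0.17 with siH19-2. SNX9, an SH3-domain protein that acts with dynamin in endocytosis, read 9.80, 9.45 and 9.77. Its relative SNX33 read 5.42, 5.10 and 5.46. SNX4, SNX9 and SNX33 thus had their lowest value on the siH19-1 array, as SNX6 did, but by 0.32 to 0.35. SNX18, also of the SNX9 type, and SNX8 did not pass the signal minimum. Of the 9 compared BAR-domain members, SNX6 was the 1 past 1.5-fold with siH19-1 and 0 were with siH19-2. With 4.21% and 11.9% of all compared genes past it, counts over so few genes set the BAR-domain members apart in no way.

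With siH19-2, SNX27 fell and SNX13 rose, while SNX6 did not move. SNX27 (TC01001214.hg.1) carries a PDZ and a FERM domain and works with retromer to return receptors and the glucose transporter SLC2A1 to the cell surface. Its log2 signal was 8.82 in control, 8.69 with siH19-1 and 7.73 with siH19-2. The siH19-2 array was the low one, at 47.0% of control (-1.09), and the siH19-1 array was at 91.4% (-0.13). SNX27 ranked 197 from the lowest of 9630 genes with siH19-2. Against siH19-1 in place of control, the siH19-2 signal was lower by 1.95-fold.

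SNX13 (TC07001169.hg.1) belongs to the sorting nexins with an RGS domain, which sit at contacts of the endoplasmic reticulum with other organelles. It read 8.76, 8.99 and 9.42, so that control was lowest and siH19-2 highest. The rise with siH19-2 was 0.66, or 158% of control, and 196 is its rank from the highest. This is just past 1.5-fold, and 9.29% of compared genes differed by as much in either direction. The siH19-1 difference was 0.23.

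In all, 2 of 26 members passed 1.5-fold with siH19-2, where 11.9% of compared genes did (2.94% higher and 8.95% lower). The share of members, 7.69%, is thus not above that of all genes. The median difference of the members was 0.03, beside -0.07 for all compared genes, with 14 members above control and 12 below. After centring each array on its median, which moved the siH19-2 median of all compared genes by 0.11, SNX13 was at 0.77 and SNX27 at -0.98. At a 2-fold threshold SNX27 remained and SNX13 did not. The members past 1.5-fold from control were SNX6 with siH19-1, and SNX27 and SNX13 with siH19-2.

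**Figure D2:**
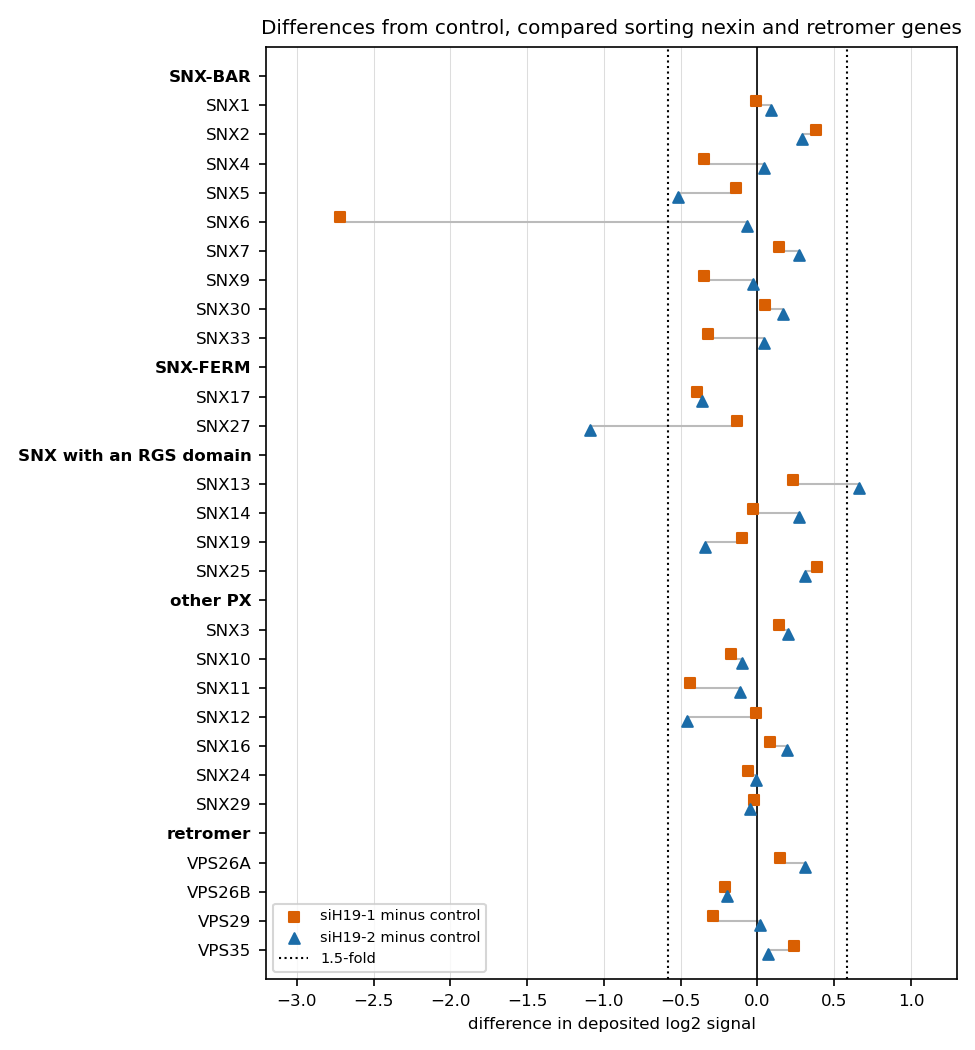
Difference in deposited log2 signal from control (horizontal axis) for the 26 compared members, with squares for siH19-1, triangles for siH19-2 and dotted lines at 1.5-fold. SNX6 at -2.72 with siH19-1, SNX27 at -1.09 and SNX13 at 0.66 with siH19-2 are the points past the lines. SNX19 stands in the group headed with an RGS domain but has no such domain.

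Compared directly, siH19-1 against siH19-2, SNX6 (-2.65) and SNX27 (0.96) were past 1.5-fold, 2 of 26 members where 8.21% of compared genes were (5.7% higher with siH19-1 and 2.51% lower). This comparison uses the same siRNA arrays as those above and does not repeat them independently. The next members were SNX12 at 0.45 and SNX13 at -0.43, so SNX13 was not past 1.5-fold between the siRNAs. SNX12, a close relative of SNX3, read 7.37, 7.36 and 6.91, low on the siH19-2 array.

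Among the remaining FERM members and SNX14, SNX19 and SNX25, differences were smaller. SNX17, a FERM-domain sorting nexin that recycles integrins and LRP1, read 6.98, 6.59 and 6.62, below control with both siRNAs by 0.39 and 0.36. SNX25, an RGS-domain member, read 7.90, 8.29 and 8.21, above control with both by 0.39 and 0.31. Both of these shared shifts rest on the 1 control array, whose deviation cannot be told apart from an effect of the siRNAs. SNX14, mutated in a recessive cerebellar ataxia, read 9.41, 9.38 and 9.68. SNX19 read 7.56, 7.46 and 7.22. SNX31, the third FERM-domain gene, was under the signal minimum at 2.84 to 2.87.

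Of the other members with a PX domain, 7 of 10 were compared, and 0 were past 1.5-fold with either siRNA. This count is near what the 4.21% and 11.9% of all compared genes give for so few. SNX3, which works with retromer to retrieve the WNT carrier WLS, read 9.54, 9.68 and 9.74. SNX11 read 7.15, 6.71 and 7.04, a difference of -0.44 with siH19-1, the lowest after SNX6. Its relative SNX10, known for its part in osteoclasts and osteopetrosis, read 6.82, 6.65 and 6.72. SNX16 read 6.93, 7.01 and 7.12. SNX24 (6.36, 6.30 and 6.35) and SNX29 (5.26, 5.24 and 5.21) were nearly level over the arrays.

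The 4 retromer genes all passed the signal minimum. With 4.21% and 11.9% of all compared genes past 1.5-fold, 0 of 4 retromer genes is no result about the complex. VPS35, the scaffold of the complex, read 10.88, 11.12 and 10.95. VPS26A read 11.13, 11.28 and 11.44, and its paralogue VPS26B read 6.48, 6.27 and 6.28. VPS29 had a pair of probe sets that went different ways with siH19-1. The probe set with the higher mean read 8.06, 7.77 and 8.08 (-0.29 with siH19-1), and the other read 5.07, 5.48 and 5.03 (0.41). No direction can be given for VPS29 with siH19-1, and the siH19-2 differences were 0.02 and -0.04. The median retromer difference was -0.03 with siH19-1 and 0.05 with siH19-2.

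The 7 members under the signal minimum were SNX8, SNX18, SNX20, SNX21, SNX22, SNX31 and SNX32. SNX8 read 5.02, 5.02 and 4.79, just under the minimum on average, and SNX18 read 4.29, 4.36 and 3.96. The differences of the other 5 lay between 0.00 and 0.10 with both siRNAs. Detection calls were not used here, so these genes cannot be called present or absent.

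**Figure D3:**
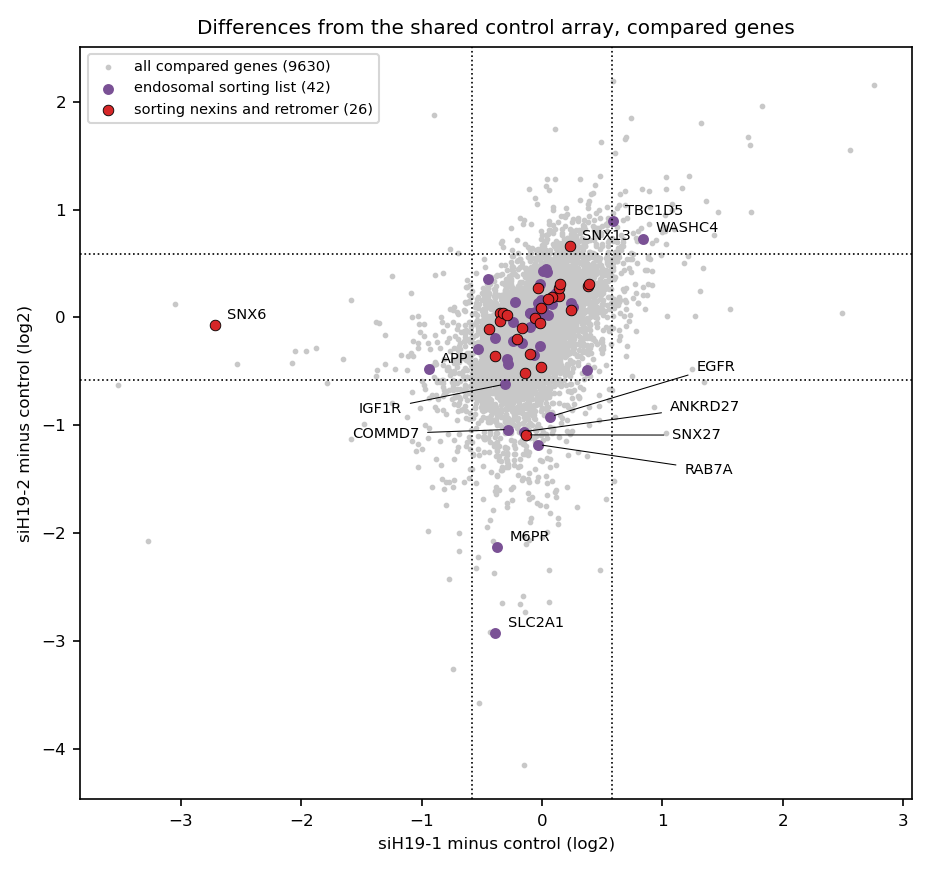
Difference from control with siH19-1 (horizontal) and siH19-2 (vertical), in log2 units, for 9630 compared genes in grey, 42 genes of the endosomal sorting list in purple and 26 sorting nexin and retromer genes in red, with dotted lines at 1.5-fold. SNX6 lies far to the left at -2.72 and near 0 on the vertical axis, and SNX27 lies low with RAB7A, ANKRD27 and COMMD7. Both axes share the control array, so the slant of the cloud is not a result.

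The compared genes with the pattern nearest to SNX6, by Euclidean distance between the 2 differences over the 3 arrays, were the small nucleolar RNA SNORA14A (-3.05 and 0.12) and SS18 (-2.53 and -0.43), a BAF complex subunit. They were followed by SMYD2, a lysine methyltransferase (-2.05 and -0.31), the small nucleolar RNA SNORD15B (-2.08 and -0.42) and the Cajal body RNA SCARNA4 (-1.96 and -0.31). Their distances from SNX6 ran from 0.381 to 0.797 log2 units. The control signal of SNORD15B was 16.55, beyond 16, which is as high as a 16-bit scanner can read on a log2 scale. All of these values come from the same 3 arrays.

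The wider endosomal sorting machinery was followed through a list of 51 genes, of which 45 had a probe set of their own and 42 were compared. With siH19-1, 2 rose and 1 fell, or 7.14% beside 4.21% of all compared genes. With siH19-2, 2 rose and 7 fell, or 21.4% beside 11.9%. The medians were -0.06 and 0.01, beside -0.06 and -0.07 for all compared genes. At 2-fold the counts were 0 and 5 of 42, where 0.81% and 3.14% of all compared genes passed. The list was chosen with earlier results of these data known, so these shares are no result about the machinery.

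The WASH complex builds the branched actin patches from which retromer and sorting nexin tubules bud. WASHC4, its SWIP subunit, rose with both siRNAs, from 10.88 to 11.72 and 11.61 (0.84 and 0.73). The comparisons share the 1 control array, and between the siRNAs WASHC4 differed by 0.11. WASHC1, WASHC3 and WASHC5 ran from -0.22 to 0.43. WASHC5, strumpellin, read 10.64, 10.62 and 10.64.

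Among the partners of retromer, RAB7A, the late endosomal GTPase that recruits it, read 16.22, 16.19 and 15.04. It fell with siH19-2 by 1.18, and its control and siH19-1 signals lay beyond what a scanner can read. TBC1D5, the RAB7 GTPase-activating protein that binds VPS29, read 5.65, 6.24 and 6.54. It rose by 0.89 with siH19-2 and by 0.59 with siH19-1, at the edge of 1.5-fold, and quantile normalization put the latter at 0.58. ANKRD27, a VPS29-binding effector that carries the SNARE VAMP7, read 7.78, 7.63 and 6.72 and fell with siH19-2 (-1.06). EHD1, DNAJC13 and DCTN1 did not reach 1.5-fold with either siRNA. RAB7A and TBC1D5 thus differed from control in opposite directions with siH19-2.

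Retriever and the CCC complex recycle SNX17 cargo. Of their 13 compared genes 1 was past 1.5-fold: COMMD7, a subunit of the CCC complex, read 6.91, 6.63 and 5.87 and fell with siH19-2 (-1.04). COMMD9 was at -0.53 with siH19-1. VPS35L, the retriever scaffold, read 9.71, 9.68 and 9.84, and VPS26C 6.18, 6.44 and 6.28. Of the 7 phosphoinositide enzymes, which make and turn over the lipids that PX domains bind, 0 were past 1.5-fold. Both counts are near the 4.21% (siH19-1) and 11.9% (siH19-2) of all compared genes. PIK3C3, the catalytic subunit of the class III kinase, read 8.35, 8.34 and 8.51, and PIKFYVE 8.18, 7.90 and 7.75.

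**Figure D4:**
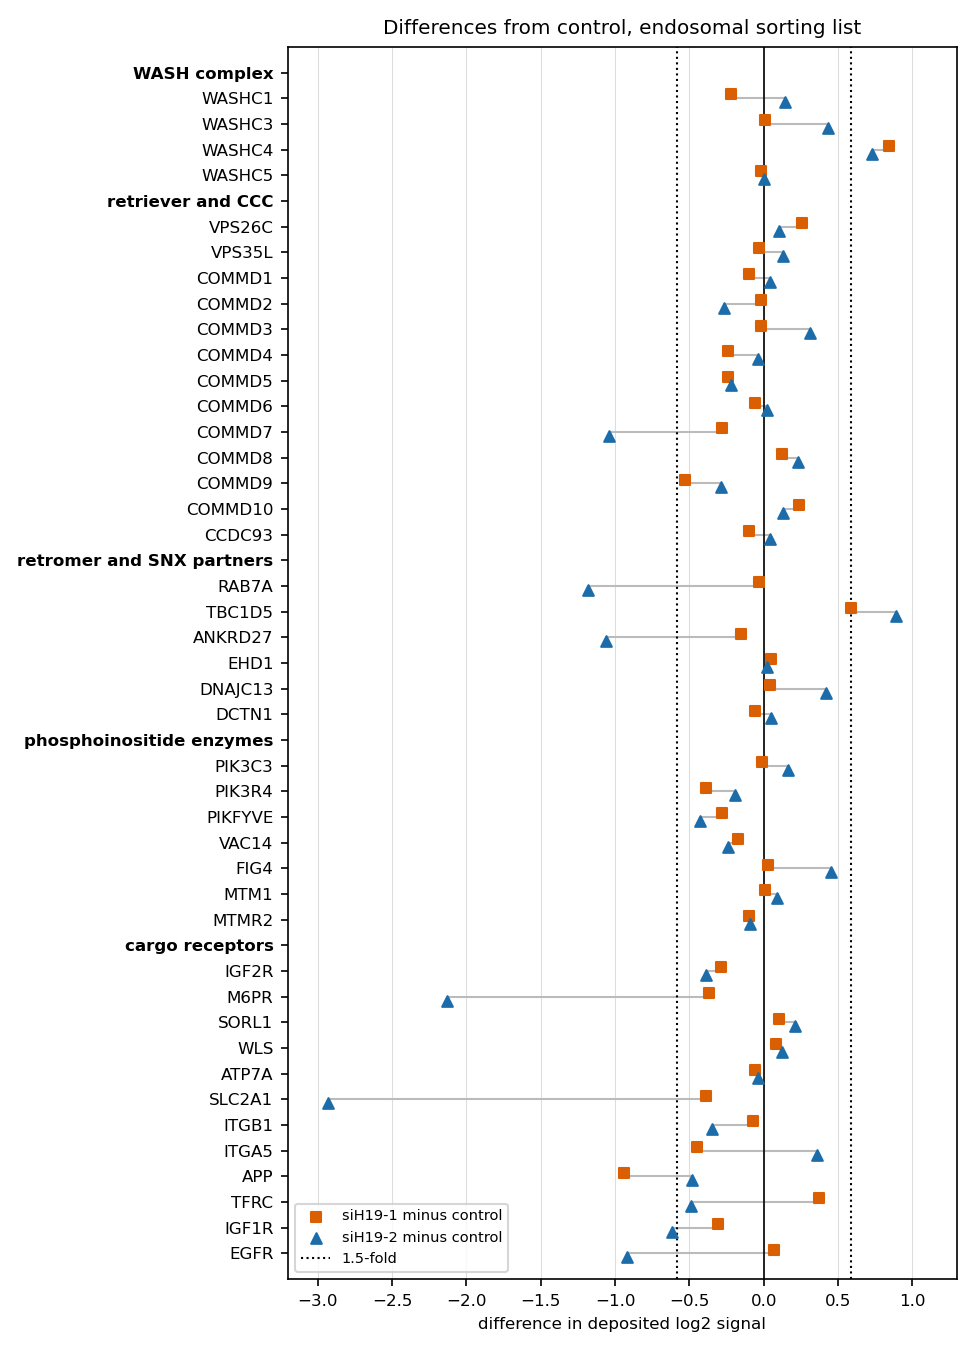
Difference in deposited log2 signal from control (horizontal axis) for the 42 compared genes of the endosomal sorting list, by complex, with squares for siH19-1, triangles for siH19-2 and dotted lines at 1.5-fold. SLC2A1 (-2.93) and M6PR (-2.13) with siH19-2 lie farthest from control, and WASHC4 is to the right of the line with both siRNAs.

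Cargo receptors held the lowest values of the list. Of 12 compared, 4 fell with siH19-2 (8.95% of all compared genes did), 1 fell with siH19-1 (2.63% of all did) and 0 rose. They belong to the same list, chosen with earlier results known, so these counts are a description. M6PR, the cation-dependent mannose 6-phosphate receptor, read 11.48, 11.11 and 9.35, and siH19-2 left 22.8% of its control signal. SLC2A1, a cargo of SNX27, read 12.07, 11.68 and 9.14, or 13.1% of control with siH19-2. SNX27 was low on that array as well, where 8.95% of compared genes fell, and a link between them was not tested. EGFR (7.21, 7.28 and 6.29) and IGF1R (6.41, 6.10 and 5.79) fell with siH19-2 by 0.92 and 0.62, and IGF1R was at -0.51 after median centring, under 1.5-fold. APP, which SNX17 recycles, read 11.87, 10.93 and 11.39 and fell with siH19-1 (-0.94).

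IGF2R, the cargo of the SNX6 coat, read 8.84, 8.55 and 8.45. Its RNA was at 81.8% of control on the siH19-1 array, where SNX6 was at 15.2%. On the siH19-2 array IGF2R was lower, at 76.3%, while SNX6 was at 95.3%. WLS (8.43, 8.51 and 8.55), ATP7A (6.55, 6.49 and 6.51) and ITGB1 (11.78, 11.71 and 11.43) did not reach 1.5-fold. The arrays measured RNA, so the sorting of these receptors was not measured.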

How the data were processed

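The deposited values were log2 signals of 67528 probe sets on 3 arrays, made by the authors with Affymetrix Expression Console and RMA, per the submitters' processing notes; no source used here gives their versions or the genome build. Each array was made from 500 ng of RNA, per the labels' protocols. Values ran from 1.78 to 19.93, and 315 (control), 319 (siH19-1) and 337 (siH19-2) lay above 16, so a step beyond plain RMA is possible and a fold is one on the deposited scale. The platform annotation, which can be old, gave 1 symbol to 23781 probe sets, several to 1543 and none to 42204. All 33 members matched a RefSeq gene table (GRCh38.p14) by symbol; it also gave the order of neighbouring genes, and none of its coordinates are printed. The probe set with the highest mean over the 3 arrays stood for a gene, and SNX15, whose probe set is shared, was no member. Differences were siRNA minus control. All members were described, as were the listed endosomal sorting genes past 1.5-fold, the H19 probe set and the 5 genes nearest to SNX6; other genes are named for their role, after their values were seen. Members and lists were chosen with earlier results of these data known. The rule of size was run on simulated arrays with an assumed noise and planted changes far larger than the threshold. That run checks the code and cannot tell how reliable a difference near 1.5-fold is. Python 3.11.15, numpy 2.4.6, pandas 2.3.3, matplotlib 3.10.9 and, for quantile normalization and cyclic loess, limma 3.58.1 in R 4.3.3 were used. Alternatives were 3 scalings, signal minimums of none and 7, the mean over probe sets, and a 2-fold threshold.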

Additional observations from a re-analysis of the deposited data

How the results depend on the processing

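SNX6 with siH19-1 and SNX27 with siH19-2 stayed past 1.5-fold, and SNX13 stayed above it with siH19-2, under each scaling, signal minimum and probe set rule tried. SNX13 ran from 0.66 to 0.77 and SNX27 from -1.09 to -0.98. SNX6 with siH19-2 ran from -0.07 to 0.04, and SNX5 with siH19-2 from -0.52 to -0.41. At 2-fold, 1 member (SNX27) was left with siH19-2, and the endosomal sorting list kept 0 genes with siH19-1 and 5 with siH19-2, against 3 and 9 at 1.5-fold. All compared genes past 2-fold numbered 78 and 302, against 405 and 1145. With a signal minimum of 7 the list had 5 genes past 1.5-fold with siH19-2, of 28 compared, because fewer genes were tested. Of all 5803 genes compared at this minimum, 15.7% were past 1.5-fold with siH19-2. The share of the list was thus nearer to that of all compared genes than with a minimum of 5. The mean over probe sets moved VPS29 with siH19-1 to 0.06. Of the genes past 1.5-fold, 37.5% (siH19-1) and 24.7% (siH19-2) were higher, against 52.7% and 44.2% after median centring and 47.8% and 28.9% after cyclic loess; the cause was not tested. No paired analysis was possible because each condition had 1 array, and no replicate could be left out. Dim probe sets limit what can be said of the 7 members under the signal minimum.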

Other observations

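The protein-coding genes nearest to SNX6 in RefSeq order, chosen after the data were seen, did not share its size of change. On one side, EAPP, which encodes an E2F-associated phosphoprotein, read 9.65 in control and 9.03 with siH19-1 (-0.62). This difference was under 1.5-fold after median centring (-0.55), quantile normalization (-0.58) and cyclic loess (-0.57). Its difference with siH19-2 was 0.35. Next to it, SPTSSA, a subunit of serine palmitoyltransferase, was at -0.27. On the other side, CFL2, a cofilin, was at 0.31 with siH19-1 and rose with siH19-2 (0.81), and BAZ1A, a chromatin remodelling subunit, was at -0.05. The measured neighbours of SNX27 that passed the signal minimum, TUFT1 and CGN, were at 0.38 and 0.14 with siH19-2, where SNX27 fell. AHR, next to SNX13, was at 0.32 with siH19-2.

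Probe sets shared by several symbols gave values that belong to no single gene. The probe set of SNX15 and the read-through gene ARL2-SNX15 read 5.65, 5.42 and 5.55. The 3 probe sets of the WASHC2 genes, subunits of the WASH complex, differed from control by 0.00 to 0.01 with siH19-1 and by 0.21 to 0.26 with siH19-2. The pseudogene SNX29P1 read 6.23, 6.16 and 6.31.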
